A study of Homo sapiens with 6 samples.

Results

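A set of 10 genes that govern or mark the epithelial-to-mesenchymal transition (EMT) were followed in an oral carcinoma line under low oxygen. They were chosen by name: SNAI1, SNAI2, ZEB1, ZEB2, TWIST1 and TWIST2, which encode transcription factors that drive EMT, VIM and FN1, which encode mesenchymal products, and GRHL2 and OVOL1, which encode transcription factors that guard the epithelial state. All were found among the 21776 genes of the count table, with Entrez numbers 6615, 6591, 6935, 9839, 7291, 117581, 7431, 2335, 79977 and 5017 in this order. The table holds no coordinates. The cells were SCC25, an established human oral squamous cell carcinoma line of genotype WT according to the labels, whereas a figure legend of the study names the line SCC9. Under hypoxia the cells were kept at 1% O2 with 5% CO2, and under normoxia in an air incubator with 5% CO2, in both cases for 12 h. Each condition had 3 libraries. The total counts of the normoxia libraries were 37278703, 29637189 and 29981208, and those of the hypoxia libraries were 30186813, 36076088 and 32272716, in order of replicate number. The sources do not state whether the libraries came from separate cultures, so that p-values measure only the spread between these samples, which may be technical.

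EMT is the process in which epithelial cells loosen their junctions and take on the shape and motility of mesenchymal cells. SNAIL (SNAI1), SLUG (SNAI2), the ZEB proteins and the TWIST proteins repress the E-cadherin gene CDH1 directly or indirectly, and hypoxia is a known inducer of several of them. GRHL2 and OVOL1 act on the opposite side, where GRHL2 activates junction genes and both oppose ZEB1. Carcinoma cells may also occupy intermediate states that keep epithelial genes while expressing some mesenchymal ones. Small RNAs of the miR-200 family repress ZEB1 and ZEB2 through sites in the 3′ untranslated regions (UTRs), and the ZEB proteins in turn repress the miR-200 genes.

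The sequences behind this last circuit are shown because the host transcripts MIR200CHG and MIR205HG were measured in the same libraries as ZEB1, ZEB2 and FN1. In the mature miRNAs, taken from RefSeq (GRCh38.p14), capitals mark the seed, bases 2 to 8. miR-200c and miR-200b share a seed with miR-429, miR-141 shares its seed with miR-200a, and miR-205 has a seed of its own. The genes of miR-200c and miR-141 lie side by side, the mature miRNAs at chr12:6963742-6963764 and chr12:6964155-6964176, both on the plus strand.
miR-200c-3p: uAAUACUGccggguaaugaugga
miR-200b-3p: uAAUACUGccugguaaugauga
miR-141-3p: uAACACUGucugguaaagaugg
miR-205-5p: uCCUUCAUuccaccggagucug

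Matches to these seeds were counted on the transcript strand of the 3′ UTRs of GENCODE v29 (GRCh38), with 1 principal transcript for each gene. The letters CAGTATT, which pair with the seed of miR-200b, miR-200c and miR-429, occurred 5 times in ZEB1 and 5 times in ZEB2. They occurred 2 times in FN1, 1 time in SNAI2 and in none of the other 6 genes. Among 18961 genes with a 3′ UTR, 14.8% held at least 1 such match, 0.723% held 3 or more and 0.0316% held 5 or more. These shares, and those below, were not adjusted for length. The median 3′ UTR had 876 bases, whereas that of ZEB1 had 1938 and that of ZEB2 had 5370. The letters CAGTGTT, which pair with the seed of miR-141 and miR-200a, occurred 3 times in ZEB1, 4 times in ZEB2 and 1 time in GRHL2, against 16.7% of genes with at least 1 match. For miR-205, the letters ATGAAGG occurred 1 time in ZEB1 and in no other of the 10 genes, against 10.2% of all genes. A match is a description of the sequence and says nothing of use in these cells. One match each (capitals) from ZEB1 (chr10:31527619-31527647, plus strand), ZEB2 (chr2:144388982-144389010, minus strand) and FN1 (chr2:215361296-215361324, minus strand), all within the 3′ UTR, is given on the transcript strand.
ZEB1: ttgttttatcttatCAGTATTatcactct
ZEB2: gcactacaatgcatCAGTATTatgattcc
FN1: tattcaataccgctCAGTATTttaaatga

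As a check of the labels, 15 genes with a known response to hypoxia were examined, and all 15 passed as higher in the edgeR test described below, with a median log2-fold change of 2.71. The list was chosen with earlier results of these data known, so that the check is not independent of them. Among all tested genes, 77.8% passed, 39.2% as higher and 38.5% as lower, and the median was 0.02. Normoxia replicate 3 stood apart from the other normoxia libraries in some of these genes. NDRG1 was at 409 CPM (counts scaled to a common library total after TMM normalization) there, against 163 and 140 CPM in normoxia replicates 1 and 2, and EGLN3 was at 10.7 CPM, against 5.86 and 3.74. Both remained far below the hypoxia libraries, where NDRG1 lay between 9007 and 10638 CPM and EGLN3 between 609 and 745 CPM. Results for the EMT genes without this library are given below.

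The squamous epithelial label was checked with 10 markers, which summed to 552, 554 and 608 CPM in normoxia and to 677, 695 and 695 CPM in hypoxia. SFN was the most abundant per length, and the basal keratin KRT5 and the squamous lineage factor TP63 were present at a mean of 55.4 and 8.74 FPKM (counts scaled to gene length and library total) in normoxia. KRT14, the usual partner of KRT5, was absent, with 1 read in 1 library. Of the squamous markers 9 were tested, with 5 higher, 3 lower and 1 not called, a share called of 8 in 9 beside the 77.8% of all tested genes. Among those without overlap and not under a mean log2 CPM of 1, the 2 largest increases and the 2 largest decreases were those of TRIM29 (1.46, SE 0.064), DSG3 (1.35, SE 0.14), SFN, which fell by 0.80 (SE 0.057), and KRT6A, which fell by 4.12 (SE 0.25) on the log2 scale. Keratin genes have near-identical copies, so that their counts are uncertain.

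Most markers of other cell types were scarce, apart from the leukocyte marker CD68, at a mean of 19.1 FPKM in normoxia and 18.5 FPKM in hypoxia. The 10 fibroblast markers, of which POSTN was not listed, summed to 5.62, 5.00 and 8.15 CPM in normoxia and to 25.3, 21.2 and 20.8 CPM in hypoxia, mostly from COL1A1. COL1A1, a fibrillar collagen, was higher by a log2-fold change of 2.26 (SE 0.16), and FAP by 0.61 (SE 0.24, adjusted p = 0.0277 by edgeR), with 52 to 74 reads in normoxia and 93 to 109 in hypoxia. In CPM the conditions overlapped for FAP. PDGFRB was not called (0.96, SE 0.43, adjusted p = 0.0507 by edgeR). LUM, with 1, 1 and 2 reads in normoxia and 27, 9 and 8 in hypoxia, did not overlap but was too scarce to be tested. PDGFRA, COL3A1, DCN and THY1 had at most 6 reads in any library, and COL1A2 at most 9. The endothelial markers summed to at most 0.744 CPM in normoxia and 1.70 CPM in hypoxia, with KDR, TEK and VWF without a read in normoxia and CLDN5 not listed. CDH5, the most abundant of them, had 9, 9 and 22 reads in normoxia and 32, 28 and 34 in hypoxia and was called higher (1.14, SE 0.44, adjusted p = 0.0250 by edgeR). The leukocyte markers summed to between 33.03 and 39.9 CPM, mostly from CD68, with PTPRC without a read in normoxia and MS4A1 not listed. CD14 was higher by 2.45 (SE 0.25). The part of these shifts in the results for EMT genes was not tested.

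Under hypoxia the transcripts of SNAI2, TWIST1, FN1 and OVOL1 rose and that of GRHL2 fell. SNAI1 rose by a smaller amount that depended on the settings of the test, and VIM did not pass the test. ZEB1 and TWIST2 were at or near the limit of detection in both conditions, and ZEB2 was scarce, with 6 to 23 reads in a library. Of the 10 members, 8 passed the filter on low counts and were tested, 5 were called higher and 1 lower. A gene was called when the p-value of edgeR's quasi-likelihood F test, adjusted over 14255 genes by Benjamini-Hochberg, was under 0.05. Against this, 77.8% of all tested genes were called, 39.2% as higher and 38.5% as lower. The share of members called, 6 of 8, thus lay near that of the genes at large. No member was called with a log2-fold change beyond 1 in size, as 30.4% of all tested genes were, and this number was 0 as well at an unadjusted p under 0.05 and with DESeq2. The median log2-fold change of the 8 tested members was 0.72, against 0.02 over all tested genes. In bulk RNA, fewer cells expressing a gene and less RNA per cell cannot be told apart.

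**Figure D1:**
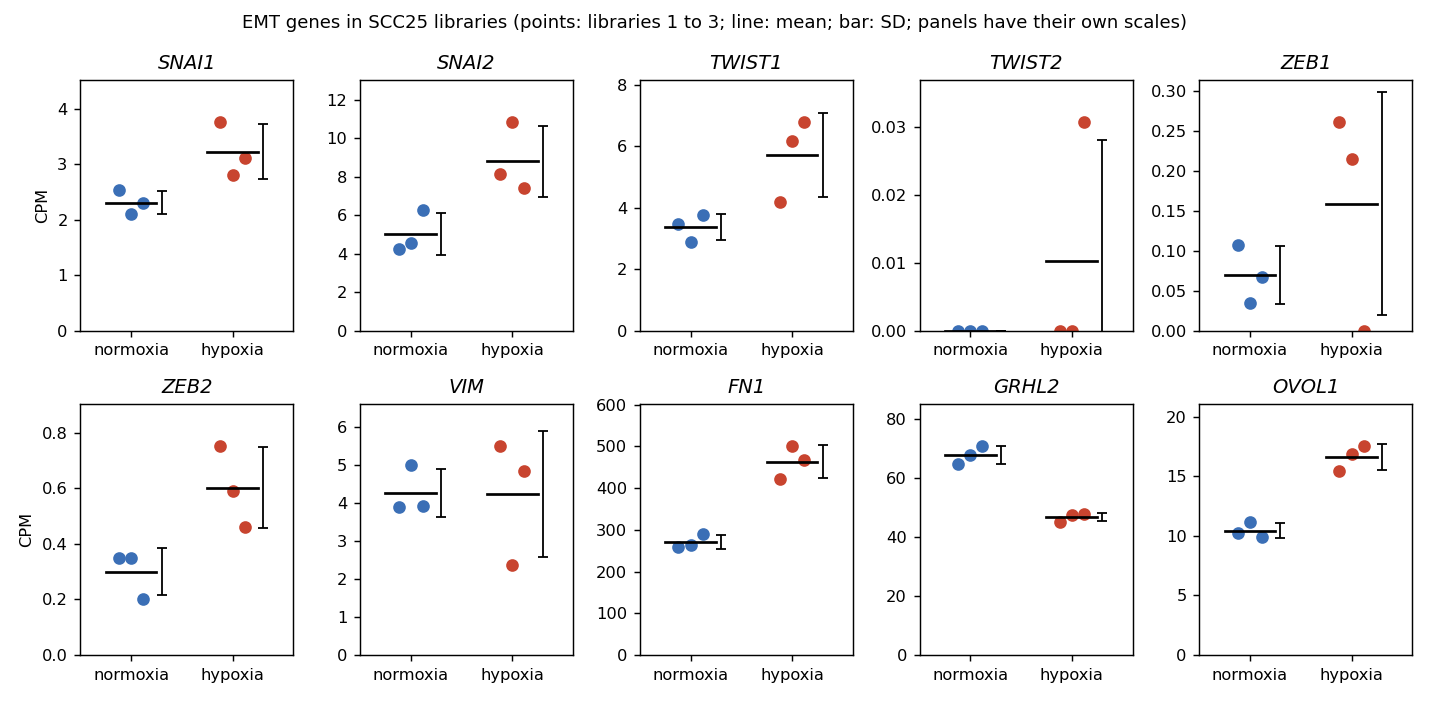
Level of each of the 10 EMT genes in CPM (vertical axis from 0, own scale per panel) in the normoxia and hypoxia libraries of SCC25; points are libraries, lines means and bars SD (n = 3). FN1, SNAI1, SNAI2, TWIST1, ZEB2 and OVOL1 lie higher in every hypoxia library, GRHL2 lies lower in every hypoxia library, and VIM overlaps.

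SNAI2, encoding SLUG, was higher under hypoxia. It was at 4.25, 4.54 and 6.29 CPM in the 3 normoxia libraries and at 8.12, 10.9 and 7.40 CPM in the 3 hypoxia libraries. Every hypoxia library lay above every normoxia library, with hypoxia replicate 2 the highest and normoxia replicate 3 the highest of its condition. The mean rose from 5.03 ± 1.10 to 8.79 ± 1.83 CPM (SD, n = 3 each), a log2-fold change of 0.82 (SE 0.17, adjusted p = 4.01e-04 by edgeR), or 1.76-fold with a 95% interval from 1.36 to 2.27. Lack of overlap was no rarity, since 80.5% of all tested genes had none, against 7 of the 8 tested members. The exact permutation test over libraries gave p = 0.1 for each of these 7, the smallest p that 3 against 3 libraries allow.

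SNAI1, encoding SNAIL, whose protein is short-lived and largely controlled after translation, was at 2.53, 2.10 and 2.30 CPM in normoxia and at 3.77, 2.80 and 3.11 CPM in hypoxia. The conditions did not overlap, although the gap between normoxia replicate 1 and hypoxia replicate 2 was narrow. The mean moved from 2.31 ± 0.215 to 3.23 ± 0.495 CPM (SD, n = 3 each), a log2-fold change of 0.47 (SE 0.21, adjusted p = 0.0480 by edgeR). This call was lost in 8 of 14 alternatives. Among them were the fits without normoxia replicate 1, 2 or 3 (adjusted p = 0.0569, 0.129 and 0.0821 by edgeR) and without hypoxia replicate 1 or 3 (adjusted p = 0.200 and 0.0812 by edgeR). The third family member, SNAI3, was higher by 2.36 (SE 0.32, adjusted p = 2.60e-06 by edgeR), from 0.468 ± 0.140 to 2.40 ± 0.233 CPM (SD, n = 3 each). Its antisense transcript SNAI3-AS1 was higher by 3.09 (SE 0.34) at the same time. Since no use of strand in the counting is stated, reads of SNAI3 and SNAI3-AS1 where they overlap cannot be told apart.

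TWIST1, a basic helix-loop-helix factor of mesoderm and neural crest, was at 3.47, 2.90 and 3.75 CPM in normoxia and at 4.19, 6.18 and 6.81 CPM in hypoxia. The conditions did not overlap, and hypoxia replicate 1 lay close to the highest normoxia library. The mean rose from 3.37 ± 0.433 to 5.73 ± 1.37 CPM (SD, n = 3 each), with a log2-fold change of 0.76 (SE 0.19, adjusted p = 0.00164 by edgeR). TWIST1 shares 141 exon bases with the antisense transcript AC003986.2 in GENCODE v29, where reads of the 2 cannot be told apart. Its paralog TWIST2 had 1 read in hypoxia replicate 3 and none in the other 5 libraries. A count of 0 allows up to 3 counts, or 0.0806 to 0.105 CPM depending on the library, so that TWIST2 was not detectable at this depth and no fold change is given.

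The ZEB genes, which encode zinc-finger repressors of epithelial genes, had few reads. ZEB1 had 4, 1 and 2 reads in normoxia and 8, 8 and 0 reads in hypoxia. The conditions overlapped (two-sided exact permutation test on log2 CPM, p = 0.6), and ZEB1 did not pass the filter on low counts. ZEB2 had 13, 10 and 6 reads in normoxia and 23, 22 and 15 reads in hypoxia. The ZEB2 conditions did not overlap, but the log2-fold change of 0.98 (SE 0.45) missed the threshold (adjusted p = 0.0544 by edgeR), with a 95% interval from 0.04 to 1.92. In GENCODE v29 ZEB2 shares 1299 exon bases with ZEB2-AS1 on the opposite strand, which is not listed in the count table, so that reads of ZEB2 and ZEB2-AS1 cannot be told apart there. The antisense transcript ZEB1-AS1, which shares 366 exon bases with ZEB1 in GENCODE v29, had more reads than ZEB1 itself, with 59, 83 and 58 in normoxia and 96, 91 and 103 in hypoxia. Its log2-fold change of 0.45 (SE 0.25) did not pass the test (adjusted p = 0.105 by edgeR).

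Scarce transcripts as a class were higher under hypoxia. Among the 1589 tested genes with a mean log2 CPM under 0, where ZEB2 lies, the median log2-fold change was 1.29, 55.6% were called higher and 5.98% lower. The filter on low counts can keep a gene this scarce through only the condition where it is higher. How far this set the median was not tested. Between 0 and 2, where SNAI1 lies, the median over 1801 genes was 0.74. Between 2 and 4, the bin of SNAI2, TWIST1, VIM and OVOL1, the median over 2749 genes was 0.13. Between 4 and 6, the bin of GRHL2, and above 6, the bin of FN1, the medians were -0.20 and -0.20. The values of ZEB2 and SNAI1 lay below the median of their bins, those of SNAI2, TWIST1, OVOL1 and FN1 above it and those of GRHL2 and VIM below it. The part of abundance in the members' changes was not tested.

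FN1, encoding the matrix glycoprotein fibronectin, was the most abundant member in both conditions. It was at 259, 264 and 290 CPM in normoxia and at 422, 501 and 468 CPM in hypoxia. The lowest hypoxia library lay well above the highest normoxia library. The mean rose from 271 ± 16.6 to 464 ± 40.1 CPM (SD, n = 3 each), a log2-fold change of 0.78 (SE 0.064, adjusted p = 5.58e-09 by edgeR), or 1.71-fold with a 95% interval from 1.56 to 1.88. The integrin subunit gene ITGA5, whose product pairs with integrin beta 1 as the main fibronectin receptor, rose from 99.7 ± 8.89 to 433 ± 29.3 CPM (SD, n = 3 each), a log2-fold change of 2.12 (SE 0.068).

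VIM, encoding the intermediate filament vimentin, did not follow FN1. VIM was at 3.90, 5.00 and 3.92 CPM in normoxia and at 5.50, 2.37 and 4.84 CPM in hypoxia. The conditions overlapped, with hypoxia replicate 2 the lowest and hypoxia replicate 1 the highest of all 6 libraries. The means were 4.27 ± 0.629 and 4.24 ± 1.65 CPM (SD, n = 3 each), and the log2-fold change of -0.02 had a 95% interval from -0.53 to 0.49 (SE 0.24, adjusted p = 0.944 by edgeR). Without hypoxia replicate 2 the value was 0.27 (SE 0.19, adjusted p = 0.199 by edgeR). VIM shares 641 exon bases with VIM-AS1 on the opposite strand in GENCODE v29, where VIM-AS1 had at most 14 reads in any library, and 619 with a second antisense transcript, AL133415.1. Reads of VIM and these transcripts cannot be told apart there.

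Of the epithelial guardians, GRHL2 fell and OVOL1 rose. GRHL2, a grainyhead-like activator of CDH1 and other junction genes, was at 64.8, 67.7 and 70.9 CPM in normoxia and at 45.3, 47.3 and 47.9 CPM in hypoxia. The replicates lay close together and the conditions were far apart. The mean fell from 67.8 ± 3.08 to 46.8 ± 1.38 CPM (SD, n = 3 each), and the log2 value fell by 0.53 (SE 0.059, adjusted p = 2.71e-07 by edgeR), with a 95% interval from -0.66 to -0.41.

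OVOL1, a zinc-finger repressor that holds epithelial progenitors in their lineage, was at 10.3, 11.1 and 9.90 CPM in normoxia and at 15.4, 16.8 and 17.5 CPM in hypoxia. Again no libraries overlapped. The mean rose from 10.4 ± 0.621 to 16.6 ± 1.07 CPM (SD, n = 3 each), a log2-fold change of 0.67 (SE 0.10, adjusted p = 1.02e-05 by edgeR). In GENCODE v29 OVOL1 shares 1044 exon bases with an antisense transcript, AP001266.1, so that part of its reads may be of that transcript.

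One paralog of each guardian moved the opposite way. GRHL1 rose from 14.4 ± 1.01 to 60.0 ± 5.91 CPM (SD, n = 3 each), a log2-fold change of 2.06 (SE 0.084, adjusted p = 7.00e-13 by edgeR). In normoxia the mean level per length was 8.13 FPKM for GRHL2 and 3.65 FPKM for GRHL1, whereas in hypoxia it was 5.80 FPKM for GRHL2 and 15.7 FPKM for GRHL1. GRHL3 was scarce, with 9, 10 and 12 reads in normoxia and 3, 6 and 2 in hypoxia, and was not tested. OVOL2 fell by 0.83 on the log2 scale (SE 0.12, adjusted p = 6.67e-06 by edgeR), from 10.6 ± 0.0531 to 5.99 ± 0.405 CPM (SD, n = 3 each). The mean level per length of OVOL2 was 5.53 FPKM in normoxia and 3.21 FPKM in hypoxia, and that of OVOL1 was 1.87 and 3.08 FPKM.

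**Figure D2:**
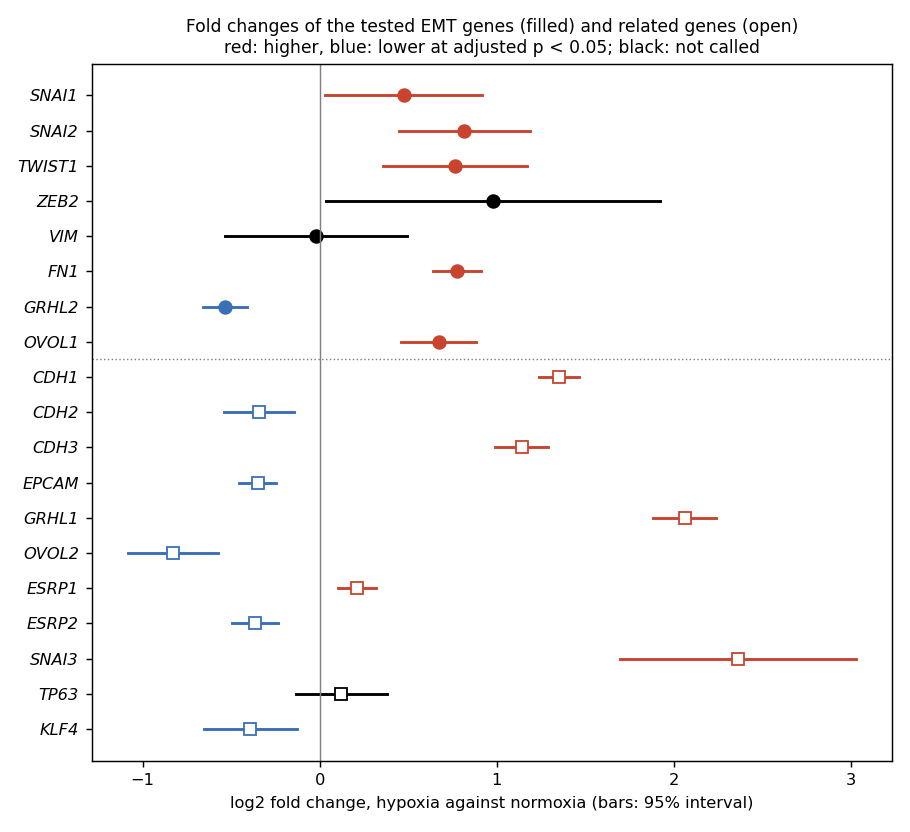
Log2-fold change of hypoxia against normoxia (horizontal axis) with its 95% interval for the 8 tested EMT genes (filled circles) and for related genes named by rule (open squares), from edgeR; red marks genes called higher, blue those called lower and black those not called. GRHL2 and OVOL2 lie below 0, OVOL1 and GRHL1 above it, and the interval of VIM spans 0.

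Without normoxia replicate 3, the library with the higher NDRG1 and EGLN3, the log2-fold changes were 0.99 for SNAI2, 0.83 for TWIST1, 0.81 for FN1, 0.62 for OVOL1 and -0.52 for GRHL2, all still called by edgeR. The value of SNAI1 was then 0.45 and that of ZEB2 0.76, neither of them called, with adjusted p-values of 0.0821 and 0.198 by edgeR.

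Levels of different genes were compared as FPKM, with the gene lengths behind the deposited values (from 1630 bases for TWIST1 to 9265 bases for ZEB2). In normoxia the order of mean levels was FN1 (31.1 ± 1.98 FPKM), GRHL2 (8.13 ± 0.352), SNAI2 (2.27 ± 0.502), TWIST1 (2.04 ± 0.286), VIM (1.94 ± 0.253), OVOL1 (1.87 ± 0.0873), SNAI1 (1.33 ± 0.146), ZEB2 (0.0319 ± 0.00893), ZEB1 (0.00845 ± 0.00449) and TWIST2, listed at 0 (SD, n = 3). The neighbours from SNAI2 to OVOL1 overlapped and have no fixed order, whereas the other neighbours did not overlap. The place of ZEB1 above TWIST2 is not fixed either. ZEB1 had 4, 1 and 2 reads in normoxia, and a count of 0 allows up to 3. In hypoxia FN1 (55.0 ± 5.28 FPKM) and GRHL2 (5.80 ± 0.194) again led, followed by SNAI2 (4.11 ± 0.911), TWIST1 (3.57 ± 0.852), OVOL1 (3.08 ± 0.201), VIM (1.99 ± 0.761) and SNAI1 (1.92 ± 0.282). In that order SNAI2 overlapped with TWIST1, TWIST1 with OVOL1, and VIM with SNAI1. FN1 was 3.82 times the mean of GRHL2 in normoxia and 9.48 times in hypoxia. VIM lay at the 57.2 percentile of all 21776 genes in normoxia and FN1 at the 90.5 percentile.

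**Figure D3:**
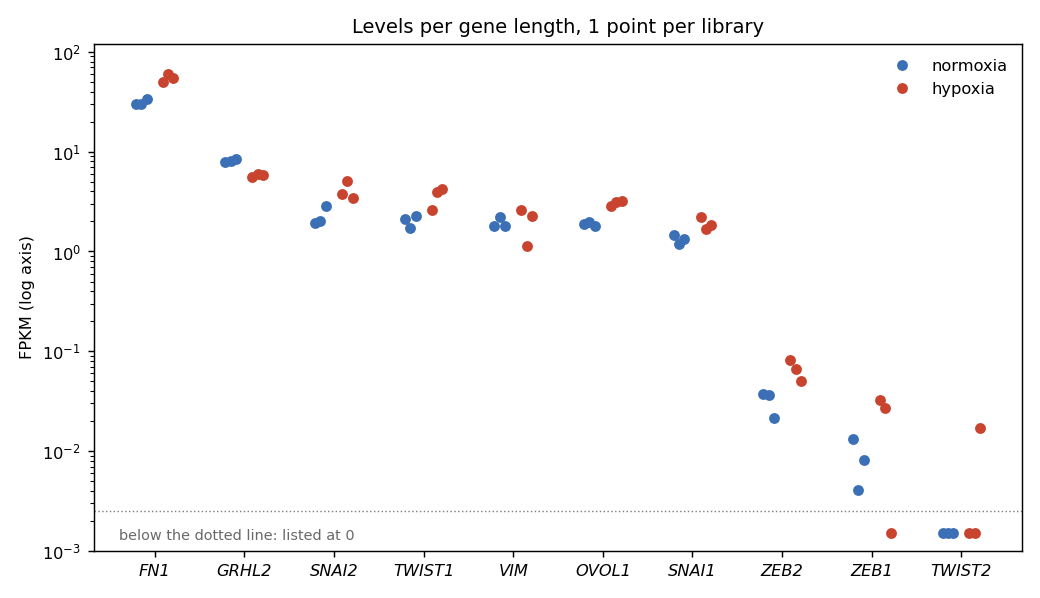
Level per gene length (FPKM, log axis) of the 10 EMT genes, 1 point per library, ordered by the normoxia mean; points below the dotted line are listed at 0. FN1 and GRHL2 lead in both conditions, SNAI1, SNAI2, TWIST1, VIM and OVOL1 share the range from 1.13 to 5.14 FPKM, and ZEB2, ZEB1 and TWIST2 reach at most 0.0822 FPKM.

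The spread between libraries differed among the members. The coefficient of variation in hypoxia was 2.94% for GRHL2, 6.47% for OVOL1 and 8.64% for FN1, which had the most reads, and 15.3% for SNAI1, 20.8% for SNAI2, 23.9% for TWIST1 and 39.0% for VIM. In normoxia the same genes ranged from 4.54% for GRHL2 to 21.9% for SNAI2. Hypoxia replicate 2 held both the highest SNAI2 and the lowest VIM of the 6 libraries.

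Within-library ratios of counts are free of library size where both counts lie well above the 0.5 added to each. The log2 ratio of VIM to CDH1, a common measure of the mesenchymal against the epithelial state, was -5.55, -5.17 and -5.67 in normoxia and -6.42, -7.66 and -6.63 in hypoxia. All hypoxia libraries lay below all normoxia libraries, with a difference of -1.44 (exact permutation test over libraries, p = 0.1, adjusted p = 0.3 over 3 ratios). CDH1 itself, encoding E-cadherin, rose from 188 ± 10.9 to 479 ± 4.85 CPM (SD, n = 3 each), a log2-fold change of 1.35 (SE 0.054, adjusted p = 5.77e-13 by edgeR), while VIM was not called. The log2 ratio of ZEB1 to GRHL2 was -9.07, -10.3 and -9.71 in normoxia and -7.35, -7.70 and -11.6 in hypoxia, which overlapped, with a difference of 0.82 (exact permutation p = 0.6, adjusted p = 0.6). The value of -11.6 belongs to hypoxia replicate 3, which had 0 ZEB1 reads, so that it reflects the added 0.5 and the depth. The difference was 0.057 without hypoxia replicate 1, 0.23 without hypoxia replicate 2, 2.18 without hypoxia replicate 3 and 0.51 without normoxia replicate 2. That of SNAI2 to SNAI1 was 0.75, 1.11 and 1.45 in normoxia and 1.11, 1.95 and 1.24 in hypoxia and overlapped as well, with a difference of 0.33 (exact permutation p = 0.5, adjusted p = 0.6). This difference was 0.075 without hypoxia replicate 2, 0.16 without normoxia replicate 1 and 0.51 without normoxia replicate 3.

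**Figure D4:**
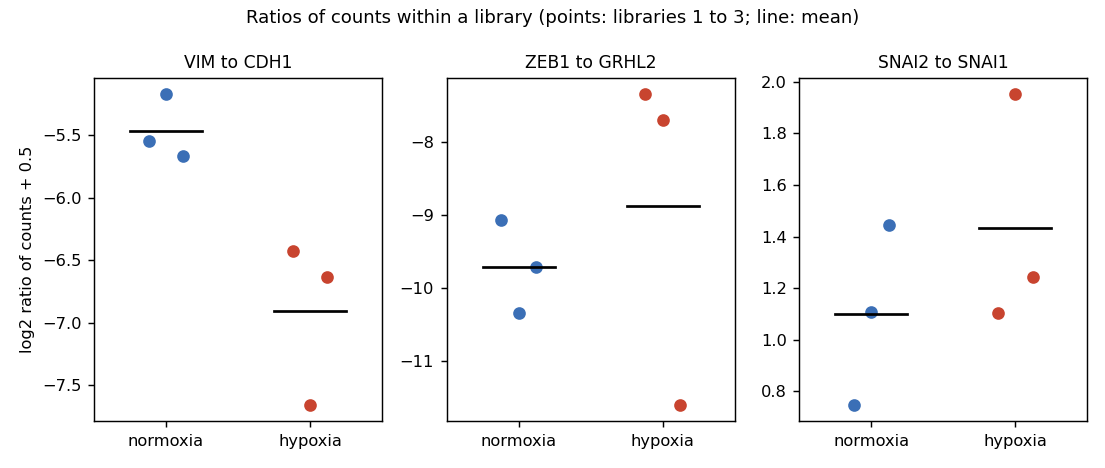
Log2 ratio of counts (0.5 added to each) within each library for VIM to CDH1, ZEB1 to GRHL2 and SNAI2 to SNAI1; points are libraries and lines means, each panel with its own scale. VIM to CDH1 is lower in every hypoxia library, and the other ratios overlap.

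Among the other EMT-inducing transcription factors, some fell and some rose. Of 16 listed, 15 were in the table (GSC was not) and 13 were tested, with 3 higher, 8 lower and 2 not called, against 39.2% higher and 38.5% lower among all tested genes. The median log2-fold change was -0.41, against 0.02 over all tested genes. HMGA2, an architectural chromatin protein, fell by 1.499 on the log2 scale (SE 0.051), from 591 ± 11.3 to 209 ± 8.05 CPM (SD, n = 3 each), and FOXQ1, a forkhead factor, fell by 1.66 (SE 0.16). KLF8, a Krüppel-like repressor, rose from 0.716 ± 0.169 to 8.16 ± 1.11 CPM (log2-fold change 3.50, SE 0.21), and SOX4 rose from 15.6 ± 1.21 to 57.5 ± 2.99 CPM (1.88, SE 0.076). PRRX1 had at most 4 reads in any library.

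Among 14 other epithelial transcription and splicing factors, 11 were tested, with 4 higher, 6 lower and 1 not called, where 39.2% of all tested genes were higher and 38.5% lower. The median was -0.36, against 0.02 over all tested genes. ELF3, an ETS factor of epithelia, rose from 28.2 ± 9.14 to 435 ± 17.1 CPM (SD, n = 3 each), a log2-fold change of 3.95 (SE 0.14). FOXA1, a pioneer factor, fell by 1.06 (SE 0.10) and KLF4, a factor of keratinocyte differentiation, fell by 0.39 (SE 0.12). Of the epithelial splicing regulators, ESRP1 rose by a log2-fold change of 0.21 (SE 0.051) and ESRP2 fell by 0.36 (SE 0.062), both past the test. TP63 was not called (0.12, SE 0.12, adjusted p = 0.358 by edgeR). TP63 was at 53.3, 52.4 and 82.5 CPM in normoxia and at 72.3, 65.7 and 66.8 CPM in hypoxia. Only normoxia replicate 3 did not lie below the hypoxia libraries.

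All 22 epithelial adhesion and polarity genes were tested, with 11 higher, 7 lower and 4 not called, so that 18 of 22 were called beside 77.8% of all tested genes. The median was 0.14, against 0.02. Beside CDH1, P-cadherin (CDH3) rose from 223 ± 28.3 to 491 ± 9.62 CPM (log2-fold change 1.14, SE 0.070), and TJP3, encoding a tight junction scaffold, rose by 2.92 (SE 0.13). Its relative TJP1 fell by 0.51 (SE 0.056), MARVELD2, encoding tricellulin, fell by 0.78 (SE 0.095), and EPCAM, an epithelial adhesion molecule, fell by 0.35 (SE 0.049).

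Of 15 other mesenchymal marker genes, 12 were tested, with 7 higher, 3 lower and 2 not called. Of all tested genes 39.2% were higher and 38.5% lower. The list's median was 0.58, against 0.02 over all tested genes. MMP2, a gelatinase, rose from 10.9 ± 2.30 to 71.1 ± 0.765 CPM (log2-fold change 2.71, SE 0.10). In contrast, N-cadherin (CDH2) fell by 0.34 (SE 0.094, adjusted p = 0.00302 by edgeR), from 32.7 ± 2.94 to 25.7 ± 3.40 CPM. The receptor tyrosine kinase AXL fell by 0.65 (SE 0.051) and TAGLN, an actin-binding protein of smooth muscle, fell by 2.19 (SE 0.19).

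Among 15 genes tied to partial EMT in oral carcinoma, 14 were tested, with 6 higher, 6 lower and 2 not called, or 12 of 14 called beside 77.8% of all tested genes. The median was -0.04, against 0.02. P4HA2, a collagen prolyl hydroxylase, rose from 83.8 ± 4.86 to 166 ± 6.32 CPM (SD, n = 3 each), a log2-fold change of 0.98 (SE 0.058). THBS1, encoding thrombospondin 1, fell by 2.84 (SE 0.11) and the collagenase MMP1 by 3.13 (SE 0.33).

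Of the 12 corepressors through which SNAIL and ZEB proteins act, 2 were higher, 5 lower and 5 not called, or 7 of 12 called where 77.8% of all tested genes were. The median was -0.09, against 0.02. LOXL2, a lysyl oxidase-like enzyme that binds SNAIL, rose by 1.26 (SE 0.099) and RCOR1 by 0.34 (SE 0.057), while LOXL3 fell by 2.06 (SE 0.13) and the polycomb subunit SUZ12 by 0.65 (SE 0.063). Of 11 genes of SNAIL turnover, 10 were in the table (USP27X was not) and 8 were tested, with none higher, 5 lower and 3 not called, where 77.8% of all tested genes were called and 38.5% were lower. The median of -0.21 was close to the -0.20 of all tested genes with a mean log2 CPM between 4 and 6. The number higher was 0 also at an unadjusted p under 0.05 by edgeR and in the DESeq2 Wald test. The F-box genes FBXO45 and FBXL14, whose products mark EMT factors for degradation, fell by 1.03 (SE 0.060) and 0.51 (SE 0.091).

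Of the 8 antisense and host transcripts at EMT loci, 7 were in the table (ZEB2-AS1 was not) and 4 were tested, with 3 higher and 1 not called, beside 39.2% higher among all tested genes. SNAI3-AS1, MIR200CHG and the uncalled ZEB1-AS1 had a mean log2 CPM between 0 and 2, where 54.6% of all tested genes were called higher. MIR205HG lay above 6, where 31.8% were. MIR205HG, the host of miR-205, rose from 58.3 ± 3.67 to 116 ± 8.29 CPM (SD, n = 3 each), a log2-fold change of 0.99 (SE 0.065, adjusted p = 2.20e-10 by edgeR). MIR200CHG, the host of miR-200c and miR-141, had 18, 14 and 38 reads in normoxia and 70, 92 and 53 in hypoxia, a log2-fold change of 1.52 (SE 0.36, adjusted p = 0.00110 by edgeR). The libraries measured these host transcripts and not the mature miRNAs. Of the genes that hold the matches shown above, ZEB1 and ZEB2 were scarce in both conditions, and FN1, which holds 2 matches to the miR-200c seed, rose. Whether the miRNAs had a part in these levels was not tested.

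Across the 6 libraries, the genes whose log2 CPM followed FN1 most closely were ZNF33A and LAMB3 (Pearson's r of 0.998 for both), among 11772 other genes with a mean log2 CPM of at least 1. For GRHL2 they were SMC3 and BRCA2 (r = 0.999 for both), and for OVOL1 they were JAG2 (r = 0.998) and THAP2 (r = 0.997). These are descriptions over 6 points that fall into 2 conditions, and 2545, 2941 and 1563 genes had an r over 0.95 with FN1, GRHL2 and OVOL1.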

How the data were processed

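RNA-seq libraries were prepared with a SMARTER mRNA-Seq kit. The authors deposited whole-number counts per gene without normalization and the FPKM of the same genes. The submitters' processing notes name the mouse builds GRCm38 and mm10, although the cells and gene symbols are human; the aligner, the counting tool and the use of strand are not given in the sources used here.

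From the counts, hypoxia was compared with normoxia by the quasi-likelihood F test of edgeR 4.0.16 in R 4.3.3, on TMM-normalized libraries, with genes kept by filterByExpr, no term beside condition, and Benjamini-Hochberg adjustment over 14255 genes at 0.05. A standard error is the log2-fold change divided by the square root of F. The biological coefficient of variation was 0.0685. Log2 CPM used a prior count of 2. No replicate pair was as close as counting noise alone allows, since the chi-square per gene lay between 5.11 and 10.8. The limit of 3 counts for a count of 0 covers counting error only. Exact permutation tests used scipy. The columns of gene annotation beside the counts served for names only. Tests were checked on simulated counts first, where the changes missed were nearly all in genes with few counts. The simulation changed few genes, equally up and down, and gave every gene the same variation between libraries. In the data most tested genes were called, so that the simulation does not check the normalization or the error of single genes here.

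The named genes are the 10 members, CDH1, CDH2, CDH3, EPCAM, GRHL1, GRHL3, OVOL2, ESRP1, ESRP2, SNAI3, PRRX1, TP63 and KLF4. From each list, the 2 largest increases and 2 largest decreases past the threshold were added, provided that the conditions did not overlap and the mean log2 CPM was 1 or more. The 2 genes most correlated with each of the 3 most abundant members by CPM, without regard to gene length, were added as well. Genes named outside the rule (MIR200CHG, ZEB1-AS1, VIM-AS1 and the markers by level) were chosen after their values were seen. One gene that the rule names is not reported here. The members and lists were chosen with earlier results of these data known. The grouping of all genes by abundance was added after the data had been seen. The test was repeated with size factors of DESeq2 1.42.0, with its Wald test, unfiltered, with a minimum of 10 counts per library, with a block for replicate number and without each library. It was also repeated by limma 3.58.1 on log2 FPKM. There a filter at a mean of 1 FPKM was used with a pseudocount of 1 or 0.1, and a pseudocount of 1 was also used without the filter.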

Additional observations from a re-analysis of the deposited data

How the results depend on the processing

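FN1, GRHL2, OVOL1, SNAI2 and TWIST1 kept their direction and an adjusted p-value under 0.05 in all 14 alternatives. SNAI1 kept its direction but lost its call with the DESeq2 Wald test (log2-fold change 0.48, adjusted p = 0.0627), without a filter (0.43, adjusted p = 0.0851 by edgeR), with the replicate number as a block (0.48, adjusted p = 0.0661 by edgeR) and in 5 of 6 fits that left out a library. These 5 gave 0.34 to 0.53, and the fit without hypoxia replicate 2, which kept the call, gave 0.57. ZEB2 passed the threshold only with limma on log2(FPKM + 1) without a filter (0.047 on that scale, adjusted p = 0.0421), and could not be tested under the minimum of 10 counts per library or the FPKM filter. VIM was not called in any alternative, and its value turned positive under the minimum of 10 counts per library (0.057) and among the fits that left out a library (-0.26 to 0.27). In the fits on counts, the number of members called was 5 or 6 and that of all genes 9967 to 11920. The fits on FPKM called 6 members and 8851 or 8875 genes with the filter, and 7 members and 11390 genes without it. When a library was left out, the difference between the conditions in the log2 ratio ranged from -1.69 to -1.07 for VIM to CDH1, from 0.057 to 2.18 for ZEB1 to GRHL2 and from 0.075 to 0.51 for SNAI2 to SNAI1. Same-numbered libraries did not deviate together (correlations of 0.018, -0.069 and 0.0012), so that no pairing by number was seen. Whether same-numbered samples were handled together is not known from this. The block changed no other call of a member. Depth limits ZEB1, ZEB2 and TWIST2, which had at most 23 reads in any library. ZEB1 and TWIST2 had no test to repeat.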
